A study of Rattus norvegicus with 10 samples.

Results

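The genes described here mark the birth of neurons in the adult dentate gyrus and the division of cells. They were taken as the rows of the deposited count table whose symbol is Dcx, Sox11, Sox4, Neurod1, Eomes, Igfbpl1, Mki67, Top2a or Hopx. The rule goes by symbol alone, and the symbols were picked with earlier results of these data known. Of the 9 symbols 8 had a row, out of 13670 symbols in the table, and Eomes is not analysed here. RNA was taken from left hippocampi of 10 TgF344-AD rats labelled as female, although the design text has the word male in 1 place. The line carries transgenes that model familial Alzheimer's disease, driven by the mouse prion promoter. Each rat was 11 months old and was perfused with saline before the tissue was taken. In the BT-11 group, 5 transgenic rats were fed chow with BT-11, a small molecule known as a binder of LANCL2, for 6 months from the age of 5 months. The untreated group was 5 transgenic rats on rodent chow. Wild-type animals are not analysed here, so every value is from the transgenic background, and each library is 1 rat.

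New granule neurons arise in the subgranular zone of the dentate gyrus from radial glia-like stem cells that are mostly quiescent. A stem cell that is activated gives rise to dividing progenitors, these to neuroblasts, and the neuroblasts mature over weeks into granule cells that join the hippocampal circuit. In rodents this process declines steeply with age. Hopx marks the quiescent stem cells and is also expressed by other astrocytes. Mki67 and Top2a are made by cells in cycle of any type, so oligodendrocyte precursors and microglia can contribute to them. The transcription factors Sox4 and Sox11 act in committed progenitors and immature neurons, Dcx is the microtubule-associated doublecortin of migrating neuroblasts, and Neurod1 is a basic helix-loop-helix factor needed for granule cell differentiation that mature granule cells also express. In pieces of whole tissue, fewer cells of a type and less RNA per cell cannot be told apart.

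Totals of the deposited counts were 14456731 to 16546772 in BT-11 libraries and 13721673 to 19700443 in untreated libraries (two-sided exact permutation test, p = 0.46). Prox1, the defining transcription factor of dentate granule cells, was present in all libraries, at no less than 43.1 CPM with BT-11 and 43.8 CPM in untreated rats. CPM is a gene's share of the counts of its library as scaled by edgeR, in parts per 1000000. Prox1 was not even between libraries. It reached 76.2 CPM in untreated library 2 and was higher still in BT-11 library 1. Neurod1 was at 26.1 CPM in untreated library 2 and at its highest, 42.0 CPM, in BT-11 library 1. In BT-11 library 3 and untreated library 4 transcripts of the choroid plexus stood apart, with Ttr, its carrier of thyroid hormone, at 1196 and 1055 CPM. Elsewhere Ttr ranged over 1.63 to 16.8 CPM with BT-11 and over 28.0 to 80.8 CPM in untreated rats. BT-11 library 3 also had the lowest share of counts from ribosomal RNA, 5.61%, where the highest share of any library was 11.0%. Leaving this library out therefore does not separate the choroid plexus from that difference. Results that rest on this pair of libraries are given with and without them.

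The promoters of Neurod1 and Hopx are shown because the levels of these genes ran opposite to each other from rat to rat, as described further on. Each sequence is the RefSeq promoter on GRCr8, from 250 bases before to 50 bases after the gene start, written 5′ to 3′ on the strand of the gene. Capitals mark matches to CANNTG, the E-box pattern that basic helix-loop-helix proteins bind, which reads the same on both strands. Neurod1 lies at chr3:84770405-84770704 on the minus strand and Hopx at chr14:31429163-31429462 on the plus strand.
Neurod1: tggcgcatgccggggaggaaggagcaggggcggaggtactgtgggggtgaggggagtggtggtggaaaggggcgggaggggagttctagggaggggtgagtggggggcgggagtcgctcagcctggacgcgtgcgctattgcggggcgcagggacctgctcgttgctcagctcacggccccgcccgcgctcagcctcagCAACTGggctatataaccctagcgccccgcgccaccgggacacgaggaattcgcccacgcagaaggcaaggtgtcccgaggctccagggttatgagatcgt
Hopx: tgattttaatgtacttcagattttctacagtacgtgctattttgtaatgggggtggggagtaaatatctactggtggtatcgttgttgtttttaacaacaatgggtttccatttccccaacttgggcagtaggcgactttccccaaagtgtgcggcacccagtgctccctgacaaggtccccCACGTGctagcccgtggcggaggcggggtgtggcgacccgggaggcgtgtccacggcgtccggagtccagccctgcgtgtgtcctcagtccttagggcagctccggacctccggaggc
Each of these promoters held 1 match, CAACTG in Neurod1 and CACGTG in Hopx. At least 1 match is common, since 72.1% of 33469 promoters of 300 bases hold one, and a match is a description of the letters only.

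Per length of transcript, Hopx and Neurod1 were the most abundant of the 8 genes and Top2a the least. Hopx measured 26.3 ± 3.57 CPM per kilobase with BT-11 and 30.5 ± 5.1 in untreated rats, and Neurod1 17.7 ± 3.79 and 13.9 ± 2.9 CPM per kilobase (SD, n = 5 each). Sox4 followed at 6.2 ± 0.888 and 6.32 ± 0.619 CPM per kilobase, and Dcx at 3.44 ± 0.365 and 3.08 ± 0.821 (SD, n = 5 each, BT-11 and untreated). Sox11, at 1.64 ± 0.265 and 1.59 ± 0.518, Igfbpl1, at 0.966 ± 0.733 and 1.18 ± 0.94, and Mki67, at 0.589 ± 0.0754 and 0.548 ± 0.0818 CPM per kilobase, came next, again with BT-11 before untreated (SD, n = 5 each). Top2a stood at 0.212 ± 0.0726 with BT-11 and 0.207 ± 0.047 CPM per kilobase in untreated rats (SD, n = 5 each), a level below which only 0.375% of the tested genes lay. The ranges over the 10 libraries were separate between Neurod1 and Sox4, between Sox4 and Dcx, and between Mki67 and Top2a. They overlapped between Hopx and Neurod1 and in the run of Dcx, Sox11, Igfbpl1 and Mki67, so that neighbours there were not ordered beyond their spread.

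The comparison of BT-11 with untreated rats asks whether 6 months of the drug changed the transcripts of this lineage. None of the 8 genes passed edgeR's quasi-likelihood test, with a smallest Benjamini-Hochberg adjusted p of 0.809, and in all 8 the CPM of the groups overlapped. Over all 12000 genes tested 0% passed, and 0.842% had groups that did not overlap. At an unadjusted p under 0.05 there were 0 of the 8 genes, against 5.96% of all genes. DESeq2 gave an adjusted p for 6 of the 8 genes, all but Igfbpl1 and Top2a, and called 0 of these 6, against 0.0745% of the 10738 genes for which it gave one. With BT-11, 5 of the 8 genes had a higher fitted level and 3 a lower one, with a median log2 fold change of 0.03 beside -0.00016 over all genes. Neurod1 had the largest log2 fold change of the 8, 0.35, and Igfbpl1 the lowest, -0.27.

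**Figure D1:**
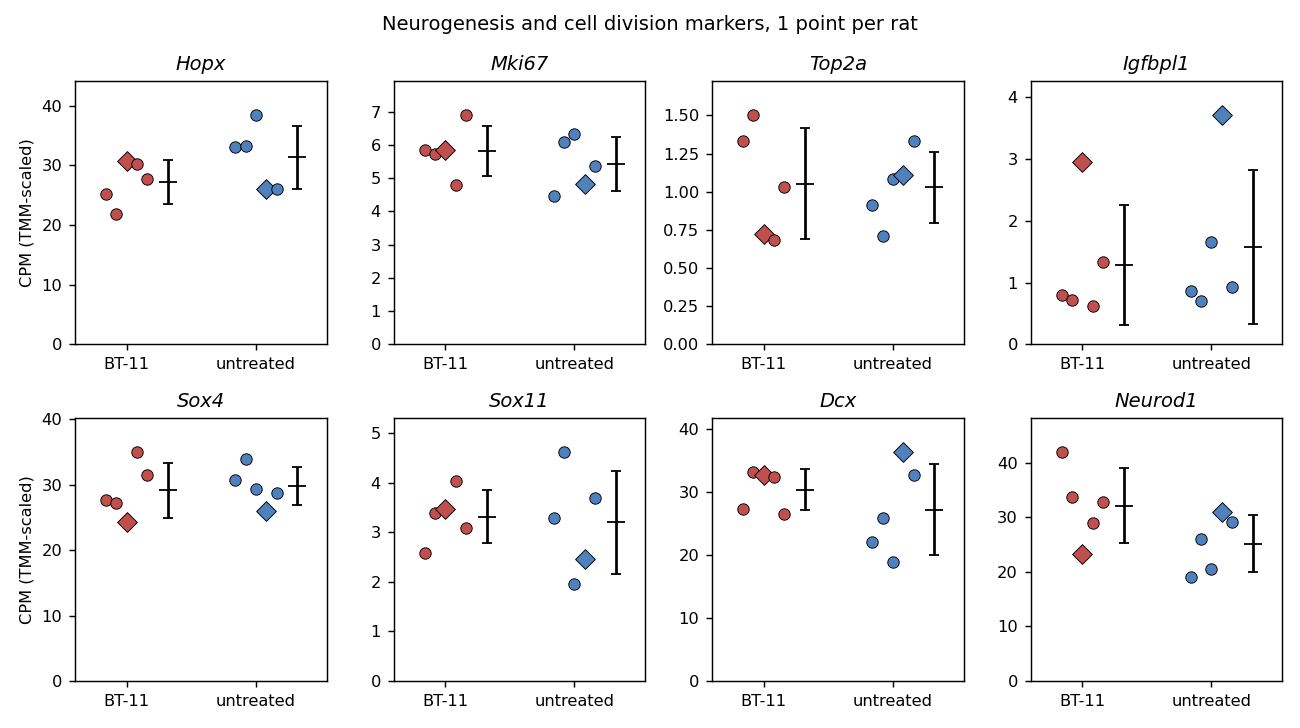
Level of each of the 8 genes in CPM, 1 point per rat, with BT-11 rats in red and untreated rats in blue; bars are the mean and SD of 5 rats and diamonds are the pair of choroid plexus-rich libraries. The groups overlap in every panel, and Igfbpl1 is highest in the diamonds, at 2.96 and 3.71 CPM.

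Hopx, a small homeodomain protein of quiescent stem cells and astrocytes, lies on chromosome 14 at 33354807 to 33362545 in rn6. It measured 25.2, 21.9, 30.7, 30.3 and 27.7 CPM in BT-11 libraries 1 to 5, and 33.1, 33.3, 38.4, 26.1 and 26.1 CPM in untreated libraries 1 to 5. The highest 3 values were all from untreated rats, while the other 2 untreated values lay within the BT-11 range. Its log2 fold change was -0.21 ± 0.122 (SE), a fold of 0.867 with a 95% interval from 0.721 to 1.04 (edgeR, adjusted p = 0.812). Without the pair of choroid plexus-rich libraries the log2 fold change was -0.31 ± 0.125 (SE, adjusted p = 0.388 by edgeR). In the list of neural stem cell and radial glia-like genes fixed for this work 15 of 18 were tested and 0 passed in either direction, with 5 higher, 10 lower and a median log2 fold change of -0.10. Those with the smallest p-values were Hes1, a Notch-induced repressor, at 0.41 ± 0.155 (SE), Lpar1, a lysophosphatidic acid receptor that oligodendrocytes also express, at -0.40 ± 0.164 (SE), and the intermediate filament gene Nes at 0.20 ± 0.12 (SE), all as log2 fold changes. In the fit with a term for the myelin level they were 0.31 for Hes1, 0.17 for Lpar1 and 0.39 for Nes. That level differed between the groups, as described with Neurod1 further on, so the term and the treatment cannot be told apart.

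Mki67, which encodes the Ki-67 protein of cycling cells, lies on chromosome 1 at 207993895 to 208020455 in rn6. It was among the steadiest of these genes, at 5.84, 5.74, 5.85, 4.78 and 6.89 CPM in BT-11 libraries 1 to 5 and 4.46, 6.1, 6.34, 4.81 and 5.38 CPM in untreated libraries 1 to 5. The lowest value was from an untreated rat and the highest from a BT-11 rat, with the rest interleaved. Behind these values were 74 to 114 counts per library, and its coefficient of variation over the 10 libraries was 13.6%, where counting error alone gives 10.5%. The log2 fold change was 0.11 ± 0.138 (SE), and the 95% interval of the fold ran from 0.875 to 1.32 (edgeR, adjusted p = 0.887). Larger changes in either direction lie outside that interval. Without both choroid plexus-rich libraries the log2 fold change was 0.07 ± 0.16 (SE).

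Top2a, the topoisomerase that untangles DNA in dividing cells, lies on chromosome 10 at 86901467 to 86930950 in rn6 and rested on only 11 to 26 counts per library. It measured 1.33, 1.5, 0.722, 0.683 and 1.03 CPM in BT-11 libraries 1 to 5 and 0.913, 0.706, 1.08, 1.11 and 1.33 CPM in untreated libraries 1 to 5. BT-11 rats held both the highest and the lowest values. Its coefficient of variation was 27.6%, with 24.4% from counting alone, so differences between rats were hardly detectable at this depth. The log2 fold change was 0.02 ± 0.274 (SE), with a 95% interval of the fold from 0.674 to 1.53 (edgeR, adjusted p = 0.993). It was below 0 without BT-11 library 1 (-0.07) or 2 (-0.14), or without untreated library 1 (-0.02) or 2 (-0.08). Without both choroid plexus-rich libraries the log2 fold change was 0.16 ± 0.312 (SE).

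Of the 50 cell cycle genes in the list fixed for this work 41 were tested, and 0 passed in either direction (18 higher, 23 lower, median log2 fold change -0.02). The list also holds inhibitors of the cycle, Cdkn1a, Cdkn1b and Cdkn1c, so these counts are not a measure of division. The genes Ccna2, Ccnb2, Cdk1, Bub1b, Ube2c, Nusap1, Cks2 and Pclaf, which act in DNA replication or mitosis, were too low to test. The cyclin gene Ccnd2, needed for granule neuron production in mice, had a log2 fold change of 0.46 ± 0.169 (SE, adjusted p = 0.809 by edgeR), at 60.8, 77.8, 57.2, 58.5 and 61.1 CPM in BT-11 libraries and 41.5, 39.3, 29.7, 58.1 and 60.8 CPM in untreated libraries. BT-11 rats lay in the upper part of the range, and untreated libraries 4 and 5 overlapped them. In a fit that held a term for the myelin level, described with Neurod1 further on, its log2 fold change was 0.07 ± 0.203 (SE). For the kinase gene Cdk2 the log2 fold change was 0.45 ± 0.172 (SE), and 0.85 ± 0.217 (SE) with the myelin term. The chromatin protein gene Hmgb2 was at 0.464, 0.196, 0.394, 0.186 and 0.604 CPM with BT-11 and 0.644, 0.706, 0.649, 1.11 and 0.666 CPM in untreated rats. Its groups did not overlap, yet it was a low transcript and did not pass (log2 fold change -1.01 ± 0.349 SE, edgeR, adjusted p = 0.809). Markers of other cell types that can divide also did not pass. Among oligodendrocyte precursor markers 9 of 10 tested genes had a lower fitted level, with summed levels of 398 to 560 CPM with BT-11 and 497 to 640 CPM in untreated rats. For microglia markers it was 9 of 12, with summed levels of 656 to 828 CPM and 702 to 1001 CPM in the same order. Their part in the levels of Mki67 and Top2a was not tested.

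Igfbpl1, an insulin-like growth factor binding protein-like gene expressed by neuroblasts in mice, lies on chromosome 5 at 61395407 to 61410813 in rn6. It was low, with 10 to 57 counts per library, and varied most of the 8 genes. It measured 0.796, 0.717, 2.96, 0.621 and 1.33 CPM in BT-11 libraries 1 to 5 and 0.859, 0.706, 1.66, 3.71 and 0.922 CPM in untreated libraries 1 to 5. The highest value of each group came from its choroid plexus-rich library, BT-11 library 3 and untreated library 4. These stood 3.41-fold and 3.58-fold above the mean of the other 4 libraries of their group, which were 0.866 ± 0.317 CPM with BT-11 and 1.04 ± 0.424 CPM in untreated rats (SD, n = 4 each). Among the other 8 libraries Igfbpl1 did not keep the order of the choroid plexus level. Its highest value there, 1.66 CPM in untreated library 3, fell on the highest level, 2.33 on the mean log2(CPM + 1) scale, and the next, 1.33 CPM in BT-11 library 5, on the lowest of all 10 libraries, 0.56. These values rested on only 23 and 22 counts, and counting error at the mean count of Igfbpl1 is 21.1%, so the order among these libraries is not firm. In the pair of rich libraries the other 7 genes were 0.637-fold to 1.46-fold the mean of the other libraries of their group.

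The choroid plexus list had all 13 markers in the table, 9 of them tested. Its summed level ranged over 5.92 to 1436 CPM with BT-11 and 39.7 to 1382 CPM in untreated rats. Ependymal cell markers, summed, were 19.5 to 34.3 CPM with BT-11 and 20.9 to 37.8 CPM in untreated rats. Leptomeningeal and fibroblast markers were 52.1 to 181 CPM with BT-11 and 56.6 to 176 CPM in untreated rats. Over the 10 libraries Pearson's r of Igfbpl1 with the level of this list was 0.74 (permutation p = 0.014, adjusted p = 0.14). Spearman's rho was 0.48 (permutation p = 0.167), and r was 0.3 without both rich libraries. Which cells the Igfbpl1 reads came from was not tested. The log2 fold change of Igfbpl1 was -0.27 ± 0.528 (SE), with a 95% interval of the fold from 0.375 to 1.83 (edgeR, adjusted p = 0.928). It was -0.82 without BT-11 library 3, turned to 0.32 without untreated library 4 and to 0.10 when the fit held a term for the choroid plexus level, and was -0.22 ± 0.351 (SE) without both rich libraries.

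**Figure D2:**
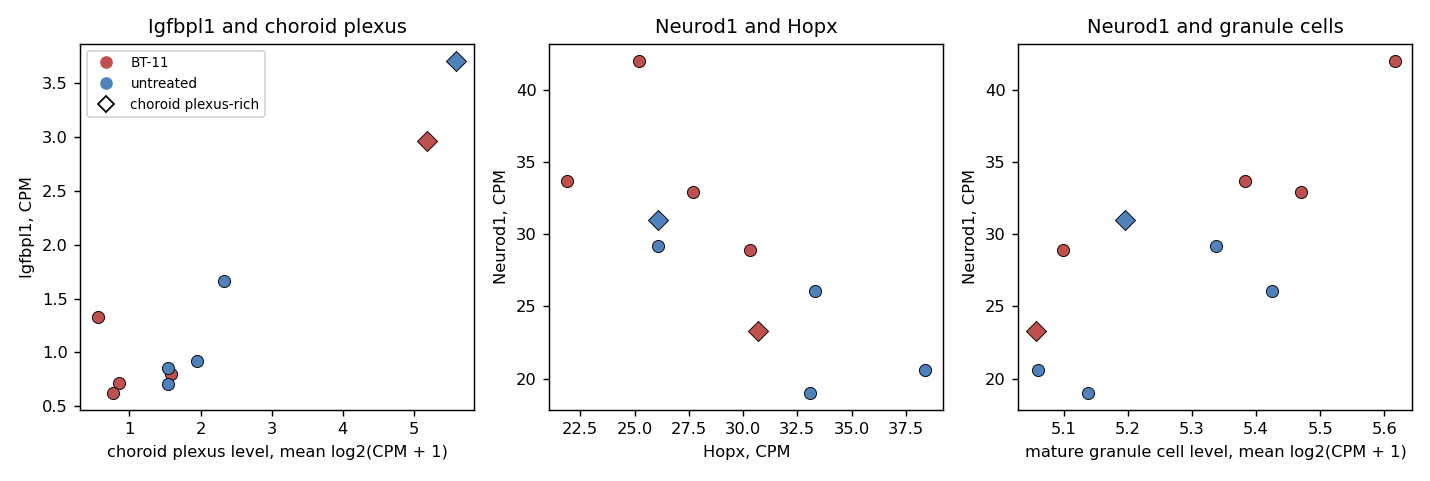
Left, Igfbpl1 in CPM against the mean log2(CPM + 1) of the choroid plexus markers; middle, Neurod1 against Hopx, both in CPM; right, Neurod1 in CPM against the mean log2(CPM + 1) of mature granule cell markers. Each point is a rat, red for BT-11 and blue for untreated, and diamonds are the pair of choroid plexus-rich libraries, which hold the highest Igfbpl1 values, 2.96 and 3.71 CPM.

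Sox4 and Sox11 are related transcription factors of the SoxC group that switch on neuronal genes. Sox4, on chromosome 17 at 37615022 to 37619728 in rn6, measured 27.7, 27.2, 24.3, 35.0 and 31.5 CPM in BT-11 libraries 1 to 5 and 30.8, 33.9, 29.3, 26.0 and 28.7 CPM in untreated libraries 1 to 5. The lowest value of each group was its choroid plexus-rich library, and the groups were interleaved. The fold was 0.98 with a 95% interval from 0.842 to 1.14 (edgeR, adjusted p = 0.969), the tightest interval of the 8 genes. Its log2 fold change of -0.03 turned to 0.03 without BT-11 library 3 and to 0.02 without untreated library 2. It was -0.013 ± 0.097 (SE) without both choroid plexus-rich libraries.

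Sox11, on chromosome 6 at 46629971 to 46631989 in rn6, was far lower than Sox4, with 27 to 72 counts per library. It measured 2.59, 3.39, 3.48, 4.04 and 3.08 CPM in BT-11 libraries 1 to 5 and 3.28, 4.62, 1.95, 2.47 and 3.69 CPM in untreated libraries 1 to 5. Untreated rats held both extremes. The log2 fold change was 0.04 ± 0.218 (SE), with a 95% interval of the fold from 0.744 to 1.43 (edgeR, adjusted p = 0.979). It was below 0 without BT-11 library 4 (-0.04), untreated library 3 (-0.09) or untreated library 4 (-0.04), and was -0.05 without both choroid plexus-rich libraries.

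Dcx lies on chromosome X at 115098675 to 115175300 in rn6 and had 262 to 639 counts per library. It measured 27.2, 33.1, 32.6, 32.4 and 26.5 CPM in BT-11 libraries 1 to 5 and 22.1, 25.8, 18.9, 36.3 and 32.7 CPM in untreated libraries 1 to 5. The BT-11 rats kept within a narrow band, whereas untreated libraries 1 to 3 lay below it and the other pair within or above it. Means were 30.4 ± 3.22 CPM with BT-11 and 27.2 ± 7.25 CPM in untreated rats (SD, n = 5 each). The log2 fold change was 0.16 ± 0.156 (SE), a fold of 1.12 with a 95% interval from 0.884 to 1.41 (edgeR, adjusted p = 0.852). Untreated library 3, with the lowest Dcx, also had the highest level of myelin markers, and in a fit that held a term for that level the log2 fold change was -0.01 ± 0.218 (SE). Without both choroid plexus-rich libraries it was 0.26 ± 0.157 (SE, adjusted p = 0.508 by edgeR), with means of 29.8 ± 3.44 CPM with BT-11 and 24.9 ± 5.95 CPM in untreated rats (SD, n = 4 each).

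In the list of neuroblast and immature granule neuron genes 19 of 23 were tested, with 9 higher, 10 lower and 0 passing in either direction (median log2 fold change -0.01). Its summed level was 2908 to 3223 CPM with BT-11 and 2843 to 3285 CPM in untreated rats, beside means of 30.4 and 27.2 CPM for Dcx. Which cells the transcripts of this list came from was not tested. The microtubule-destabilizing protein gene Stmn1, which oligodendrocyte lineage cells also express, was at 208, 202, 316, 316 and 222 CPM with BT-11 and 455, 471, 399, 264 and 297 CPM in untreated rats. Only untreated libraries 4 and 5 fell within the BT-11 range. Its log2 fold change was -0.58 ± 0.181 (SE, adjusted p = 0.8 by edgeR), and -0.26 in the fit with the myelin term. Dpysl5, a cytoskeletal regulator of growth cones, had one of -0.37 ± 0.13 (SE), and Bhlhe22, a basic helix-loop-helix repressor of neurons, one of 0.34 ± 0.132 (SE). With the myelin term Bhlhe22 was at 0.067 ± 0.178 (SE) and Dpysl5 at -0.36 ± 0.19 (SE). In the intermediate progenitor list 7 of 11 genes were tested, 3 higher and 4 lower, and 0 passed (median -0.03). Its members with the smallest p-values were the somatostatin receptor gene Sstr2 at -0.38 ± 0.152 (SE), the RNA-binding protein gene Elavl2 at 0.38 ± 0.21 (SE) and the stress-inducible gene Gadd45g at -0.34 ± 0.217 (SE), as log2 fold changes. With the myelin term these were -0.38 for Sstr2, -0.071 for Elavl2 and -0.0096 for Gadd45g.

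Neurod1, on chromosome 3 at 66414321 to 66417618 in rn6, came nearest to a difference. It measured 42.0, 33.7, 23.3, 28.9 and 32.9 CPM in BT-11 libraries 1 to 5 and 19.0, 26.1, 20.6, 31.0 and 29.2 CPM in untreated libraries 1 to 5. Of the BT-11 rats 4 of 5 lay above the untreated mean of 25.2 CPM and 0 of 5 untreated rats reached the BT-11 mean of 32.2 CPM, but the ranges overlapped. The log2 fold change was 0.35 ± 0.163 (SE), a fold of 1.28 with a 95% interval from 1.0 to 1.63 (edgeR, unadjusted p = 0.0503, adjusted p = 0.809). Of all genes tested 5.98% had a smaller p. Without both choroid plexus-rich libraries the means were 34.4 ± 5.53 and 23.7 ± 4.77 CPM with BT-11 and in untreated rats (SD, n = 4 each), and the log2 fold change 0.535 ± 0.154 (SE, unadjusted p = 0.00519, adjusted p = 0.347 by edgeR). In that setting, chosen after the values were seen, 1435 of 11983 genes had an unadjusted p under 0.05. With a term for the choroid plexus level instead, the log2 fold change was 0.34 ± 0.18 (SE, edgeR, unadjusted p = 0.0795, adjusted p = 0.846). Leaving out each library in turn, it was lowest without BT-11 library 1 (0.24, edgeR, unadjusted p = 0.155). It was highest without BT-11 library 3 (0.45, edgeR, unadjusted p = 0.0127).

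The mature dentate granule cell list, which holds Prox1, had 9 of 15 genes tested, of which 7 were higher, 2 lower and 0 passed (median log2 fold change 0.10). Its summed level was 342 to 471 CPM with BT-11 and 323 to 438 CPM in untreated rats. The members with the smallest p-values were Il16, a cytokine precursor also made in neurons, at 0.30 ± 0.158 (SE), Stxbp6, a SNARE-binding protein, at 0.18 ± 0.184 (SE), and the transcription factor Rfx3 at 0.17 ± 0.217 (SE). With the myelin term these were 0.19 for Il16, -0.26 for Stxbp6 and -0.33 for Rfx3. Myelin markers stood on the other side. All 13 mature oligodendrocyte and myelin markers had a lower fitted level with BT-11, 12 of them at an unadjusted p under 0.05 and none past the adjusted threshold of edgeR's test, and summed to 6709 to 9885 CPM with BT-11 and 9134 to 16967 CPM in untreated rats. In the fit with the myelin term the log2 fold change of Neurod1 was -0.02 ± 0.211 (SE), and that of Hopx 0.12 ± 0.13 (SE). The myelin level itself nearly followed the groups, at 7.25 to 7.81 with BT-11 and 7.78 to 8.33 in untreated rats (mean log2(CPM + 1)). That term therefore takes up much of any difference between the groups. For every gene given with it, treatment and myelin level cannot be told apart.

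**Figure D3:**
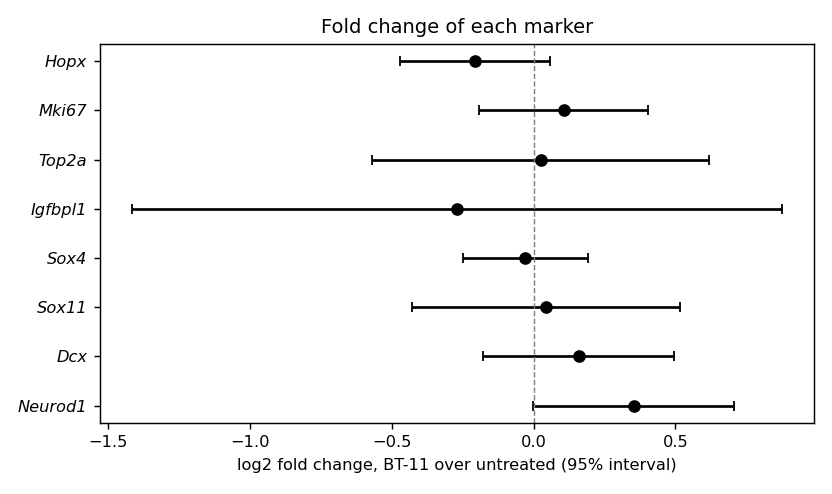
Log2 fold change of BT-11 over untreated for each of the 8 genes, with its 95% interval from edgeR's fit. Every interval includes 0, that of Neurod1 by the smallest margin, and the interval of Igfbpl1 is the widest.

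Neurod1, Dcx and Igfbpl1 varied widely from rat to rat. The coefficient of variation over the 10 libraries was 23.9% for Neurod1 and 19.3% for Dcx, where genes within 0.5 log2 units of their level had a median of 9.67% and counting error gives 4.66% and 4.64%. For Igfbpl1 it was 74.8%, beside a median of 28.6% in genes of like level. Of their 28 pairs, 0 passed a permutation test of Pearson's r on log2(CPM + 1) when adjusted over the pairs (smallest adjusted p = 0.142). The pair with the smallest p was Neurod1 and Hopx, which ran opposite ways (r = -0.81, permutation p = 0.00507, adjusted p = 0.142; Spearman's rho = -0.88, permutation p = 0.00178, adjusted p = 0.0498; n = 10). Without the 2 libraries farthest from the median of Neurod1, BT-11 library 1 and untreated library 1, r was -0.87, and with group means removed it was -0.75. Within the groups r was -0.67 over 5 BT-11 rats and -0.83 over 5 untreated rats, too few for a test of their own.

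Dcx and Hopx also ran opposite ways (r = -0.72, permutation p = 0.0169, adjusted p = 0.237; rho = -0.75, permutation p = 0.0172, adjusted p = 0.213), but r was -0.35 without untreated libraries 1 and 3, so that the relation rests on those rats. The cycling-cell genes Mki67 and Top2a had no relation that was detectable here (r = 0.13, permutation p = 0.714, adjusted p = 0.943; rho = -0.01, permutation p = 1.0, adjusted p = 1.0; r = -0.27 without BT-11 library 4 and untreated library 1), and the low counts of Top2a limit that comparison. Of 120 relations between the 8 genes and the levels of 15 lists, computed after the values were seen, 0 passed after adjustment (smallest adjusted p = 0.112 for Pearson's r). That smallest value belonged to Hopx and the stem cell and radial glia-like list (r = 0.88, permutation p = 0.00093; rho = 0.85, permutation p = 0.00295; r = 0.86 without BT-11 libraries 1 and 2). Neurod1 followed the mature granule cell list (r = 0.78, permutation p = 0.0081, adjusted p = 0.12; rho = 0.75, permutation p = 0.0171; r = 0.62 without BT-11 libraries 1 and 3). Neurod1 ran against 6 lists, with r = -0.8 for stem cells, -0.79 for microglia, -0.78 for oligodendrocyte precursors, -0.77 for endothelium, -0.77 for the Cajal-Retzius list and -0.72 for myelin. The level of the Cajal-Retzius list is that of Calb2 alone, its only tested gene. Over these 6 lists the permutation p was 0.00568 to 0.0202 (adjusted p 0.12 to 0.165) and rho was -0.85 to -0.75 (permutation p 0.00281 to 0.0177). Without the 2 farthest libraries of each, r was -0.64 to -0.49. With group means removed r was -0.85 to -0.71 for stem cells, microglia, endothelium and precursors, -0.65 for Calb2 and -0.56 for myelin. Within BT-11 rats r was -0.84 for Calb2 and -0.81 for myelin, and within untreated rats -0.39 and -0.3. For Calb2 and myelin the relation over all rats thus includes the difference between the groups. Hopx ran with lists of the same kinds beside its stem cell list, with r = 0.83 for oligodendrocyte precursors, 0.8 for endothelium, 0.8 for myelin, 0.71 for microglia, 0.71 for the Cajal-Retzius list (Calb2 alone) and 0.66 for astrocytes. Their permutation p was 0.00366 to 0.0381 (adjusted p 0.12 to 0.241), and rho was 0.59 to 0.87 (permutation p 0.0023 to 0.0794). Without the 2 farthest libraries of each, r was 0.7 to 0.8 for precursors, endothelium and astrocytes but 0.35 to 0.42 for myelin, microglia and Calb2. With group means removed it was 0.61 for Calb2 and 0.71 to 0.82 for the rest. Other members had relations of like size that also did not pass. Sox4 ran against the cell cycle list (r = -0.75, permutation p = 0.0131, adjusted p = 0.14, rho = -0.79). Sox11 ran with the neuroblast list (r = 0.71, permutation p = 0.0209, adjusted p = 0.165). Top2a ran against that list (r = -0.71, permutation p = 0.0274, adjusted p = 0.193) and against stem cells (r = -0.68). Values of 1 library share its depth and scaling, so these relations are between shares of RNA.

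The genes most like a member were taken as those with the highest Pearson's r to it on log2(CPM + 1) over the 10 libraries, among 11630 genes, and are a description only. For Dcx they were Spock1 (r = 0.977), which encodes a proteoglycan, Cmpk1 (0.969), a nucleotide kinase, and Gnai1 (0.967), a G protein subunit. For Mki67 they were Hirip3 (r = 0.93), which encodes a histone-binding protein, Tia1 (0.874), an RNA-binding protein, and Sf3b6 (0.868), a splicing factor subunit. For Hopx they were Hhatl (r = 0.981), an acyltransferase-like gene, Mpst (0.976), a sulfurtransferase, and Plod3 (0.971), a lysyl hydroxylase.

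Among niche signals and their receptors, the extracellular cues that direct stem cells to divide or rest, 26 of 28 genes were tested. Of these 17 were higher, 9 lower and 0 passed in either direction, with a median log2 fold change of 0.04 beside -0.00016 over all genes. Frzb, a secreted antagonist of Wnt signals also called sFRP3, was at 43.8, 45.4, 34.7, 32.9 and 43.2 CPM in BT-11 libraries 1 to 5 and 32.5, 29.2, 31.3, 33.2 and 35.8 CPM in untreated libraries 1 to 5. BT-11 libraries 1, 2 and 5 lay above every untreated library, and the other pair fell within their range. Its log2 fold change was 0.30 ± 0.0973 (SE, adjusted p = 0.8 by edgeR). Gli2, an effector of Hedgehog signals, had one of 0.34 ± 0.126 (SE), and Bdnf, a neurotrophin that promotes survival of new neurons, one of 0.34 ± 0.134 (SE). Bdnf was highest in BT-11 libraries 1 and 2, at 91.2 and 96.2 CPM, with 60.9 to 67.6 CPM in BT-11 libraries 3 to 5 and 51.3 to 67.0 CPM in untreated rats. In the fit with the myelin term the log2 fold changes were 0.10 for Frzb, 0.45 for Gli2 and -0.05 for Bdnf.

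**Figure D4:**
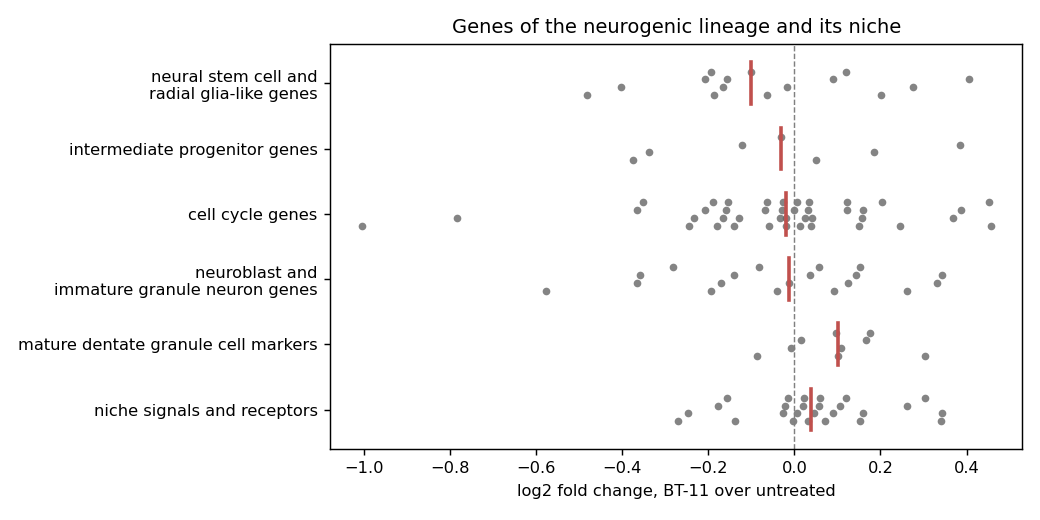
Log2 fold change of BT-11 over untreated for every tested gene of 6 lists of the neurogenic lineage and its niche, 1 point per gene, spread vertically only for visibility, with the median of each list as a red line. The medians lie between -0.10 and 0.10 and no gene passed; the lowest point, at -1.01, is Hmgb2.

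Markers of other cells that could carry these transcripts were examined in the same way, and 0 passed. Of 13 astrocyte markers 7 were higher and 6 lower, with summed levels of 7023 to 8090 CPM with BT-11 and 6863 to 8878 CPM in untreated rats. Gja1, their connexin 43, stood at 0.17 ± 0.0703 (SE) in log2 fold change. Markers of subventricular zone and GABAergic neuroblasts, the other Dcx-expressing population of the rodent forebrain, summed to 86.3 to 114 CPM with BT-11 and 80.6 to 113 CPM in untreated rats, with 2 of 6 tested genes higher and 4 lower. All 9 interneuron markers had a lower fitted level, with summed levels of 583 to 777 CPM with BT-11 and 549 to 822 CPM in untreated rats. Of the Cajal-Retzius cell list only Calb2, calretinin, was tested, at a log2 fold change of -0.42 ± 0.145 (SE), and of -0.091 ± 0.165 (SE) in the fit with the myelin term. Of 9 endothelial markers 2 were higher and 7 lower, with summed levels of 311 to 439 CPM with BT-11 and 328 to 479 CPM in untreated rats. The part of these cells in the levels of the 8 genes was not tested.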

How the data were processed

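Messenger RNA libraries of 10 rats were sequenced in pairs of 50 bases, per the labels' protocols. Tools named in the submitters' processing notes are STAR 2.7.9a, bcl2fastq 2.19.1.403, DESeq2 and Partek, and the build is rn6. What each tool did, the counter and the gene models are not stated in the sources used here. In 1 file the authors deposited estimated counts (expected counts) for 14806 transcript rows without normalization, with 85.4% of the values whole within 1e-06. They also deposited a normalized signal, the same counts times 1 factor per library (0.822 to 1.15). All 8 genes had 1 row each and whole counts.

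Rows were summed by symbol and rounded. The design had assumed counts per gene. The filterByExpr rule (edgeR 4.0.16) left 12000 genes, the 8 among them. Libraries were scaled by TMM. BT-11 was set over untreated in edgeR's quasi-likelihood test, two-sided, no covariate, Benjamini-Hochberg adjusted over all 12000 genes, threshold 0.05. Standard errors and 95% intervals come from its F statistic. Correlations used 100000 permutations, two-sided. The number of pairs is 28 because 8 genes were found. List levels are means of log2(CPM + 1). R 4.3.3, limma 3.58.1, DESeq2 1.42.0 and Python 3.11.15 were used, and the fit was tested on simulated data.

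The genes and lists were chosen with earlier results of these data known. Named genes were the members, up to 3 tested genes with the smallest p-values of each lineage list and up to 2 of each list of other cells, and the 3 genes most like Dcx, Mki67 and Hopx. Prox1, Ttr and Pdgfra are given as levels of defining markers. Which of the list genes are shown per library was chosen after their values were seen. Counting error limits Top2a, Igfbpl1 and Sox11 most.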

Additional observations from a re-analysis of the deposited data

Results flagged for a closer look

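Libraries that stood apart within their group were sought by the gap to the nearest of the other 4, in 47 genes and 17 list levels. Of 128 groups examined 11 had such a library, and chance gives about 1 in 20. None of the 8 genes of neurogenesis and division was among them. The choroid plexus level was 5.18 in BT-11 library 3 (0.56 to 1.58 in the other BT-11 libraries) and 5.6 in untreated library 4 (1.54 to 2.33 in the other untreated libraries), on the mean log2(CPM + 1) scale. In the same libraries the choroid plexus genes F5 and Tmem72 stood apart, F5 at 29.9 CPM in BT-11 library 3 and 48.2 CPM in untreated library 4, and Tmem72 at 10.4 and 23.7 CPM. The ependymal level was 2.44 in untreated library 4, with 1.76 to 1.85 in the other untreated libraries. Hmgb2 was 1.11 CPM in untreated library 4, with 0.644 to 0.706 CPM in the others. In untreated library 3 the oligodendrocyte precursor level was 5.34, with 5.01 to 5.1 in the others, and Lpar1 was 157 CPM, with 79.0 to 95.5 CPM. Ccnd2 was 77.8 CPM in BT-11 library 2, with 57.2 to 61.1 CPM in the remaining 4 of that group.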

How the results depend on the processing

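No setting among the 23 tried called any of the 8 genes, but DESeq2 gave no adjusted p for Igfbpl1 and Top2a and could not call them, and 163 of their 184 values under the alternatives kept their direction. Over all genes DESeq2 called 8 and the other settings 0; at an unadjusted p under 0.05 the edgeR fit had 715. As log2 fold changes, a term for the myelin level gave -0.013 for Dcx, -0.015 for Neurod1, 0.12 for Hopx, 0.014 for Sox4, 0.062 for Igfbpl1 and -0.40 for Top2a. The myelin level itself differed between the groups, so that term and the treatment cannot be told apart. A term for the choroid plexus level gave 0.10 for Igfbpl1 and -0.011 for Top2a. Top2a was -0.012 with limma voom and -0.0008 on the deposited normalized values, and Sox11 was -0.052 without both choroid plexus-rich libraries. The cause of these reversals was not tested. Leaving out each library in turn gave -0.14 to 0.14 for Top2a, -0.82 to 0.32 for Igfbpl1, -0.086 to 0.21 for Sox11, -0.11 to 0.034 for Sox4, 0.054 to 0.28 for Dcx, 0.038 to 0.17 for Mki67, 0.24 to 0.45 for Neurod1 and -0.27 to -0.13 for Hopx. With the replicate number as a block 0 genes passed, and Neurod1 was 0.35 and Hopx -0.20. Deviations of same-numbered rats correlated at -0.353 to 0.121, so the numbers are not taken to pair them, and in 0 of 5 cases did a BT-11 library correlate best with its own number. Of 39 other genes named, 12 changed direction in some setting. With the myelin level these were Bdnf (-0.047), C1qb (0.14), Elavl2 (-0.071), Kdr (0.013), Lpar1 (0.17), Rarres2 (0.11), Rfx3 (-0.33), Stxbp6 (-0.26) and Tyrobp (0.042). Leaving out each library gave 2.05 as the highest and -4.91 as the lowest value for F5, -4.57 to 1.24 for Tmem72, -0.16 to 0.006 for Rarres2 and -0.12 to 0.34 for Sp9. DESeq2 called Ugt8 (-0.38), a marker of myelin. Of the 28 pairs 1 passed by Spearman's rho and 1 without both choroid plexus-rich libraries, against 0 otherwise. For Mki67 and Top2a rho was -0.01 and r was -0.27 without the 2 farthest libraries.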

Other observations

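Without both choroid plexus-rich libraries, Sox4 and Top2a ran opposite ways over the remaining 8 rats (r = -0.97, exact permutation test, adjusted p = 0.00694 over the 28 pairs). With all 10 rats r was -0.42 (permutation p = 0.22, adjusted p = 0.616). This setting was chosen after the values were seen, and Top2a rested on 11 to 26 counts per library.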
